A study of Mus musculus with 45 samples.

Results

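Spleen stroma genes were examined in every library of a 4-tissue RNA sequencing series in mice. The set held 6 genes, Tlx1, Nkx2-3, Nr5a1, Nkx2-5, Madcam1 and Stab2, of the 55367 gene symbols in the deposited count table. They were selected on their counts in the lungs, chosen by the appearance of their transcripts in the lungs of mice with 4T07 tumors, so the 4T07 lung values are described below without a test.

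The series held 45 libraries in 15 groups of 3. Scaffolds, lungs and spleens came from healthy Control mice and from mice inoculated with 67NR, 4T07 or 4T1 cells, and 3 primary tumors of each line were sequenced as well. All were female BALB/c mice that carried a subcutaneous polycaprolactone scaffold, a porous polymer implant that the study used as an engineered site for disseminating cells, and the Control mice carried it too. The tumor lines are sister lines from a single spontaneous mammary tumor and were injected into the mammary fat pad. The study describes them as nonmetastatic (67NR), invasive but nonmetastatic (4T07) and metastatic (4T1). Its methods also call 4T07 micro-metastatic. Tissues were taken 14 days after inoculation. The labels do not give the age of the mice and do not link the tissues of a mouse, and nothing in them says that the 3 libraries of a group came from separate mice, although the study counts 3 mice per condition. If they did not, the p-values measure the spread between these samples, which may be technical.

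The spleen is built by a mesenchymal stroma that arises apart from the blood cells it later houses. Tlx1 (also called Hox11) and the NK-type homeobox factors Nkx2-5 and Nkx2-3 act in the splenic primordium, and Nr5a1, the nuclear receptor SF-1 best known from adrenal gland and gonads, is also needed for the organization of splenic vessels. Madcam1 is an addressin, an adhesion molecule on cells lining the marginal sinus of the spleen and on gut venules, and it binds the lymphocyte integrin formed by the products of Itga4 and Itgb7. Stab2 is a scavenger receptor for hyaluronan on sinusoidal endothelium in spleen, liver and lymph node. Nkx2-5 is otherwise known as a cardiac factor, so markers of heart muscle, steroid-producing cells, intestine and liver were measured beside the set.

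Promoter sequences of 5 of the 6 genes, all but Nr5a1, matched by symbol in RefSeq (GRCm38.p6). They are shown for the 3 homeobox genes and for Madcam1, and the Stab2 window is not shown. The levels of all 6 genes, Stab2 included, moved together between tissues. Each runs from 250 bases before to 50 bases after the start, 5′ to 3′ on the gene's strand. The Tlx1 window lies at chr19:45150465-45150764 (+), the Nkx2-3 window at chr19:43612075-43612374 (+), the Nkx2-5 window at chr17:26841516-26841815 (−) and the Madcam1 window at chr10:79664309-79664608 (+). Capitals mark CCAAT (the CCAAT box, on either strand) in the homeobox genes and GGGA, any 4 bases and CC (a kB-like motif, on either strand) in Madcam1.
Tlx1: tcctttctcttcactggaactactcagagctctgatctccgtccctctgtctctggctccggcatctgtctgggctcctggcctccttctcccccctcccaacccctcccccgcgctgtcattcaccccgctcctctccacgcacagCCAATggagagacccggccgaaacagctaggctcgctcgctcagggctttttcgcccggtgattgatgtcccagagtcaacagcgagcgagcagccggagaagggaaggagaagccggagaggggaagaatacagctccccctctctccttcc
Nkx2-3: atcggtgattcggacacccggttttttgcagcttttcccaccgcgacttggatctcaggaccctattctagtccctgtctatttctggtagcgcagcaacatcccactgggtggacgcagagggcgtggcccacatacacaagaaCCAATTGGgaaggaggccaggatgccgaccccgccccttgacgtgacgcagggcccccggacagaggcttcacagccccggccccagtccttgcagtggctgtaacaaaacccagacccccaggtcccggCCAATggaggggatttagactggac
Nkx2-5: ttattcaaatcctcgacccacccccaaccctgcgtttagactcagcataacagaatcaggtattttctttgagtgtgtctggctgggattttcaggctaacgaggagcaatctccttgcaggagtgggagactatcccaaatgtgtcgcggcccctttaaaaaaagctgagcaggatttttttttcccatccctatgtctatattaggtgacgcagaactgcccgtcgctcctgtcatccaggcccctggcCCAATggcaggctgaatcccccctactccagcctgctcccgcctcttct
Madcam1: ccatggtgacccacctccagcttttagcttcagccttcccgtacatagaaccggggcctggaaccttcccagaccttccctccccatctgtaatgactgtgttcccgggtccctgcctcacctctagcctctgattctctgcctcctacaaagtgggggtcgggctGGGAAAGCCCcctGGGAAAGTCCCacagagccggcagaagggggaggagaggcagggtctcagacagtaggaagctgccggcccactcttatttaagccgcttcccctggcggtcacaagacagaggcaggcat
The CCAAT letters occurred once in Tlx1 and Nkx2-5 and 3 times in Nkx2-3, where CCAATTGG holds a match on each strand. They were not found in the windows of Madcam1 and Stab2. Of 32851 promoter windows of this length, 37.4% held CCAAT. The kB-like motif occurred 3 times in Madcam1, with 2 of the matches overlapping on opposite strands, and 2 times in Stab2, against 20.7% of all windows with at least 1 match. TNAAGTG (an NKX2-type motif, in 11.5% of windows) and CAAGGNCA (an SF-1-type motif, in 6.71%) were not found in any of the 5 windows. The motifs were chosen after the sequences were seen, and a match describes letters and not a bound site.

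The libraries held 3491888 to 8175380 counts (median 5149589), and each level below is in CPM (the count divided by the library total, times 1000000). At the median total, a gene with few CPM rests on few reads. Some libraries stood apart before any comparison of the set. The 3 4T07 lungs held 12097, 6079 and 15059 CPM summed over 8 lung epithelium markers, against 29728 to 39036 CPM in the other 9 lungs. The 3 4T07 spleens held 53.0 to 97.8 CPM of these markers, against 8.77 to 18.8 CPM in Control spleens. Genes of the exocrine pancreas, an organ that lies against the spleen, summed to 652 CPM in Control spleen 2 and 3597 CPM in 4T1 spleen 3, but to 1.85 CPM in 4T07 spleen 1. Whether tissue carried over between organs at dissection, or mixing of libraries, contributed to any 4T07 lung or spleen level given below was not tested. The 4T07 scaffold 1 and the 4T07 tumor 1 carried more erythroid and pancreas transcripts than their group mates, as given with the results they touch. Because these are bulk tissues, fewer cells of a type and less RNA per cell cannot be told apart.

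In healthy mice, all 6 genes were highest in the spleen. Tlx1 was at 33.2, 33.0 and 39.0 CPM in the Control spleens, against 0.63 to 0.79 CPM in the Control scaffolds and 0.32 to 0.54 CPM in the Control lungs. Stab2 was at 142, 169 and 180 CPM in the Control spleens and did not exceed 7.13 CPM in the scaffolds or 6.49 CPM in the lungs. Neither gene overlapped between spleens and the other tissues. The test of Control spleens against Control scaffolds called Tlx1, Madcam1 and Stab2 higher in spleens. Of all 21602 genes tested, 15.9% were called higher (edgeR's quasi-likelihood test, Benjamini-Hochberg adjusted p under 0.05 and fold change over 2). No lung was compared, but the Control lungs entered the count filter, the scaling and the estimate of spread. Low levels in those lungs were part of how the genes were chosen. The log2 fold change was 5.46 for Tlx1 (SE 0.27, edgeR adjusted p = 7.04e-10), 5.497 for Madcam1 (SE 0.43, edgeR adjusted p = 7.02e-08) and 4.41 for Stab2 (SE 0.18, edgeR adjusted p = 1.91e-10). Nkx2-3, Nr5a1 and Nkx2-5 had 3, 3 and 0 counts over the 3 Control scaffolds and passed the filter on low counts through the spleens alone, so their levels stand in place of a test. Nkx2-3 was at 35.0, 54.5 and 43.8 CPM in Control spleens, Nr5a1 at 6.02, 11.3 and 10.4 CPM and Nkx2-5 at 2.91, 1.62 and 3.88 CPM.

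**Figure D1:**
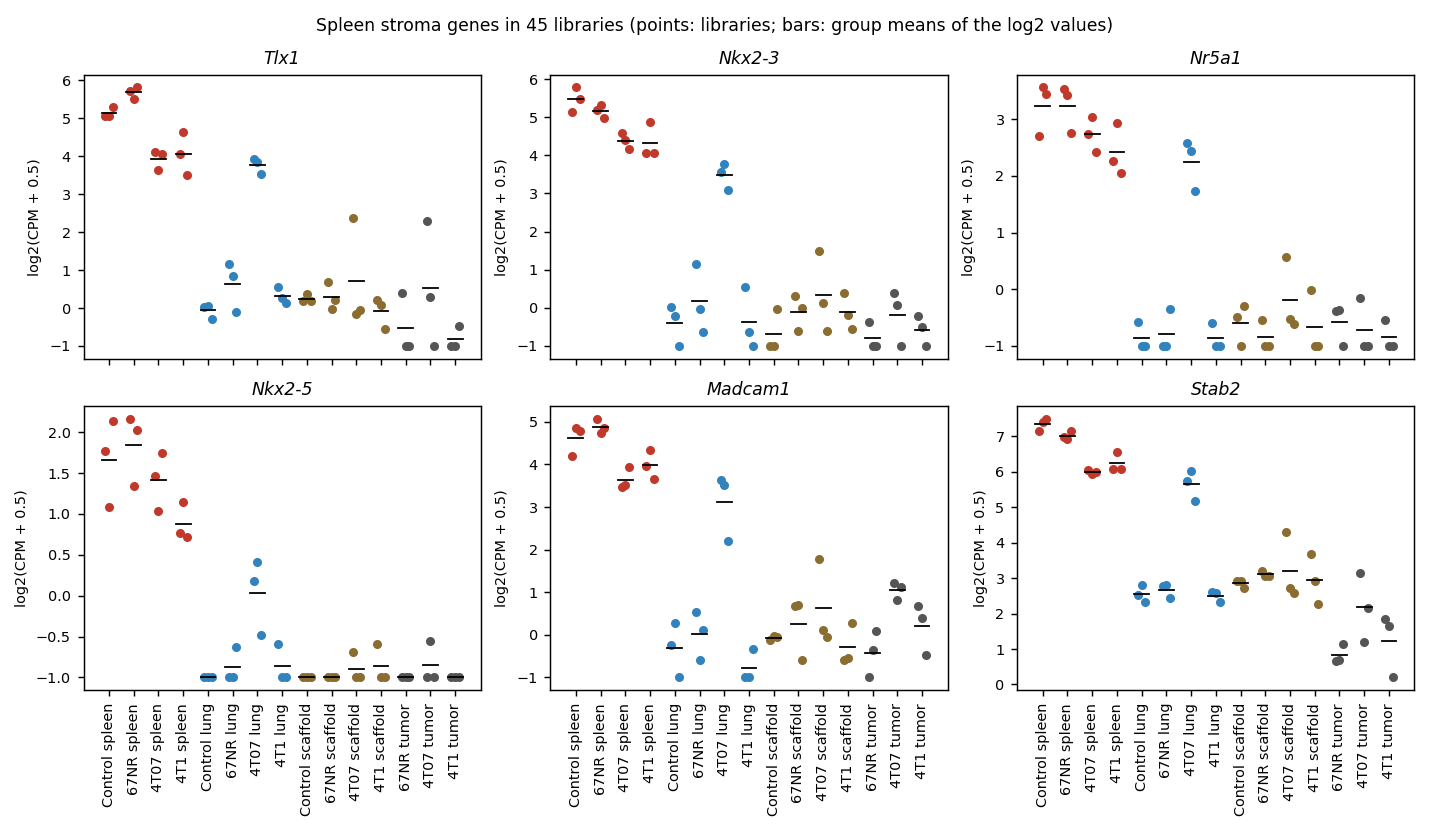
Level of each of the 6 genes in all 45 libraries, as log2(CPM + 0.5) on the vertical axis, by tissue and tumor line. Points are libraries and bars are group means, and in every panel the 4 spleen groups are followed by the 4T07 lungs, with the 4T07 lungs for Tlx1 at 11.1 to 14.6 CPM.

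The order of the 15 groups was alike in the 6 genes. The 4 spleen groups had the 4 highest means in each gene, and the 4T07 lungs came next in each. The 4T07 lung libraries overlapped the spleen group next above them in Tlx1, Nr5a1, Madcam1 and Stab2 and not in Nkx2-3 and Nkx2-5. Apart from Nkx2-5, the group next below did not overlap the 4T07 lungs in any gene. Its mean was 1.84 CPM for Tlx1 and 10.2 CPM for Stab2, both in 4T07 scaffolds. For Nkx2-5, the lowest 4T07 lung and the highest 4T07 tumor each rest on 1 count, so their order is not resolved. The lung levels are how the genes were chosen. Over the 15 group means on the log2(CPM + 0.5) scale, Pearson's r between pairs of the 6 genes was 0.931 to 0.989 over 15 pairs, a description of points that share libraries, tissues and depth.

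In the 4T07 lungs, Tlx1 was at 14.6, 13.8 and 11.1 CPM, against 0.32 to 1.72 CPM in the other 9 lungs with a median of 0.60 CPM. Nkx2-3, which controls Madcam1 and the vasculature of spleen and gut, was at 11.2, 13.2 and 8.03 CPM, against 0 to 1.72 CPM with a median of 0.36 CPM. No other lung reached the level of any 4T07 lung in these genes. Nr5a1 was at 5.50, 4.96 and 2.82 CPM, against 0 to 0.29 CPM, with 6 of the 9 other lungs at 0 counts. Nkx2-5 was at 0.64, 0.83 and 0.22 CPM, which are 8 counts in all, against 2 counts over the 9 other lungs. For Nkx2-5, the lowest 4T07 lung and the highest other lung each rest on 1 count, so their order is not resolved at this depth. Madcam1 was at 11.9, 10.9 and 4.12 CPM, against 0 to 0.96 CPM. Stab2 was at 52.9, 64.8 and 35.6 CPM, against 4.497 to 6.497 CPM, so that this gene had counts in every lung of the series. Lung 3 was the lowest of the 4T07 lungs for all 6 genes.

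The ratio of summed counts per total between 4T07 lungs and the other 9 lungs was 17.1 for Tlx1 and 24.2 for Nkx2-3. It was 61.9 for Nr5a1 and 15.7 for Nkx2-5, which rest on 4 and 2 counts in the other lungs. For Madcam1 it was 27.9 and for Stab2 9.38. The genes were chosen on these levels, so the ratios are given without an interval or a test. All 3 4T07 lungs lay above all 9 others in the 5 genes other than Nkx2-5, which is how they were chosen, and in 13.6% of the 21937 genes whose counts over all lungs summed to more than 10. Nkx2-5, with 10 lung counts, is not among these. In the other direction, 18.4% of genes lay below all 9 others.

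Set against the spleens, the 4T07 lungs held 37.5% of the mean Control spleen level of Tlx1, 24.4% of Nkx2-3, 48.0% of Nr5a1, 20.0% of Nkx2-5, 36.7% of Madcam1 and 31.2% of Stab2. Lung 3 on its own gave lower shares, from 7.74% for Nkx2-5 to 31.5% for Tlx1. Against the spleens of the 4T07 mice the shares were 88.0% for Tlx1, 80.2% for Stab2, 74.2% for Madcam1, 70.6% for Nr5a1, 52.7% for Nkx2-3 and 25.1% for Nkx2-5. These percentages carry the error of both groups, since Nr5a1 ranged from 30.6% to 59.7% of the Control spleen mean over the 3 lungs.

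Other spleen genes were found in the 4T07 lungs beside these 6. Of 8 markers of marginal zone and red pulp macrophages, 8 lay above all 9 other lungs, among them Marco, a scavenger receptor of marginal zone macrophages, at 97.6 ± 13.3 CPM (SD, n = 3) against 9.77 ± 5.43 CPM in Control lungs. Of 8 B cell markers 7 did so, with Cr2, the complement receptor of follicular and marginal zone B cells, at 106 ± 15.6 CPM against 60.4 ± 3.08 CPM. The 10 erythroid markers and the 10 exocrine pancreas markers did so without exception. Over all genes, 13.6% lay above and 18.4% below the other 9 lungs, and the counts of each list are to be read beside these shares. The pancreas list summed to 408, 491 and 358 CPM in the 4T07 lungs and to 5.04 to 20.8 CPM in the others, with Pnlip, pancreatic lipase, at 80.6 ± 11.8 CPM. Ccl19 and Ccl21a, whose near-identical gene copies make counts uncertain, were near 0 in all libraries.

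Genes of lung cells moved the other way in the same libraries. Of 8 lung epithelium markers, 7 lay below all 9 other lungs, and Sftpc, a surfactant protein of alveolar epithelium, was at 2758 ± 915 CPM in 4T07 lungs. Of the list of spleen development and non-canonical NF-kB factors, 0 of 10 lay above and 3 below. Of the white pulp stroma list, 1 of 10 lay above (Cxcl13, the B cell zone chemokine, at 75.3 ± 14.7 CPM against 9.95 ± 1.69 CPM in Control lungs) and 3 below. Of the 8 genes of sinusoidal endothelium and addressin partners, 2 lay above and 3 below. Itga4 was at 158 ± 26.7 CPM in 4T07 lungs against 49.8 ± 5.08 CPM in Control lungs, and Itgb7 at 20.7 ± 4.16 CPM against 15.6 ± 1.79 CPM. Cardiac muscle had 0 of 10 above and 3 below, intestine 1 of 6 above, liver 0 of 6, adipocytes and mesothelium 0 of 7 with 1 below, and steroid-producing cells 1 of 7. The shares over all genes cover only genes with more than 10 lung counts. Of these lists, only 3 intestine and 3 steroid genes had that many, so such small counts are not ranked against those shares. The part of these other tissues in the levels of the 6 genes was not tested.

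**Figure D2:**
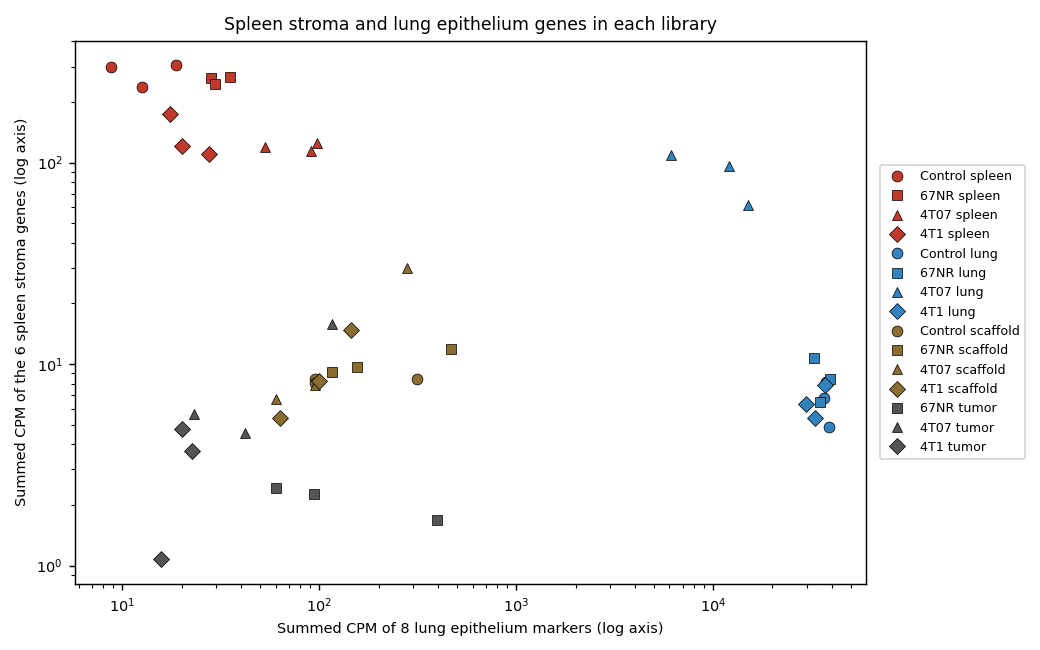
Summed CPM of the 6 spleen stroma genes (vertical) against summed CPM of 8 lung epithelium markers (horizontal), both on log axes, with each point a library, colors for tissues and shapes for groups of mice. The 3 4T07 lungs lie at 61.8 to 109 CPM of the 6 genes and 6079 to 15059 CPM of the lung markers, above the other lungs (4.86 to 10.7 CPM) and to their left.

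In lungs without 4T07 tumors the set was low, which is part of how the genes were chosen, and showed no called difference. The lack of calls therefore does not stand apart from that choice. The lung fit also held the 4T07 lungs. The edgeR test of 67NR against Control lungs called 0 of the 4 genes that exceeded 10 counts in the lungs without 4T07 tumors, which were Tlx1, Nkx2-3, Madcam1 and Stab2 (0 at an unadjusted p under 0.05, 0 by DESeq2), where 4.25% of all genes passed an adjusted p under 0.10 with over 2-fold difference. The test of 4T1 against Control lungs likewise called 0 of 4 (0 at an unadjusted p under 0.05, 0 by DESeq2), where 4.61% of all genes were called. Nr5a1 and Nkx2-5 had 4 and 2 counts over these 9 lungs. Nr5a1 passed the count filter through the 4T07 lungs alone and Nkx2-5 did not pass it, so neither is counted here. Madcam1 illustrates the limit of depth, with 0, 0 and 2 counts in the 4T1 lungs and 2, 4 and 0 counts in the Control lungs.

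The rule that chose the genes used their lung counts, so differences between spleen groups could be tested. Earlier results of these data were known when the genes were chosen. Tlx1 and Stab2 fell in the spleens of 4T07 mice, and no gene of the set passed in 67NR or 4T1 against Control spleens. Tlx1 was at 16.7, 11.9 and 16.3 CPM in the 4T07 spleens, below all 3 Control spleens (33.2, 33.0 and 39.0 CPM). Its log2 fold change was -1.07 (SE 0.23, edgeR adjusted p = 0.00242). Stab2 was at 66.5, 61.1 and 63.6 CPM, again below every Control spleen (142, 169 and 180 CPM), with a log2 fold change of -1.19 (SE 0.16, edgeR adjusted p = 6.80e-05). The call of 2 of 6 genes lower stands beside 10.3% of all 21128 genes called lower (adjusted p under 0.10, over 2-fold). DESeq2 also called 2.

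Nkx2-3 and Madcam1 did not reach the fold threshold in 4T07 spleens. Nkx2-3 was at 23.5, 20.7 and 17.5 CPM against 35.0, 54.5 and 43.8 CPM, a log2 fold change of -0.93 (SE 0.22, edgeR adjusted p = 0.00581). Madcam1 was at 10.5, 10.9 and 14.9 CPM against 17.9, 28.6 and 27.0 CPM, a log2 fold change of -0.85 (SE 0.23, edgeR adjusted p = 0.0131). Both were separated from the Control spleens, as were 4 of 6 genes of the set and, downward, 26.2% of all genes tested. Nr5a1 and Nkx2-5 overlapped between the groups, with log2 fold changes of -0.35 (SE 0.32, edgeR adjusted p = 0.452) and -0.21 (SE 0.42, edgeR adjusted p = 0.757). The median log2 fold change was -0.89 over the 6 genes and -0.09 over all genes. Without Control spleen 1, the library with the lowest Nkx2-3, Nr5a1, Madcam1 and Stab2 of its group, 4 genes were called, and without 4T07 spleen 2 only Stab2 was, with Tlx1 at -0.94.

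In the 4T1 spleens, Tlx1 was at 16.3, 24.2 and 11.0 CPM, Nkx2-3 at 16.3, 28.7 and 16.2 CPM and Stab2 at 67.4, 94.0 and 67.0 CPM. Spleen 2 was the highest of the 3 in each. These genes lay below all Control spleens (3 of 6, with 29.7% of all genes separated downward), with log2 fold changes of -0.78 (SE 0.22, edgeR adjusted p = 0.0156), -0.87 (SE 0.23, edgeR adjusted p = 0.00834) and -0.85 (SE 0.16, edgeR adjusted p = 9.49e-04). None of the 6 passed the fold threshold (0 called by edgeR and by DESeq2, 3 at an unadjusted p under 0.05), where 19.9% of all genes were called. Without 4T1 spleen 2, the same 3 genes passed, and without Control spleen 1, Nkx2-3 passed at -1.01.

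In the 67NR spleens, Tlx1 was at 52.1, 45.5 and 55.8 CPM, above all Control spleens, as were 15.8% of all genes tested. Its log2 fold change was 0.45 (SE 0.21, edgeR adjusted p = 0.288), and no gene of the set was called (0 by edgeR and by DESeq2, 1 at an unadjusted p under 0.05, which was Stab2), where 2.26% of all genes were called. Madcam1 was at 33.1, 26.1 and 28.3 CPM and Stab2 at 127, 121 and 143 CPM, both overlapping the Control spleens. Nkx2-3 at 36.2, 39.6 and 31.2 CPM overlapped them as well.

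The tumor lines were also compared with each other in the spleens. Tlx1 was lower in 4T07 than in 67NR spleens, with a log2 fold change of -1.52 (SE 0.23, edgeR adjusted p = 2.17e-04), and so was Madcam1, with -1.01 (SE 0.23, edgeR adjusted p = 0.00576). These 2 of 6 stand beside 8.2% of all genes called lower. The Madcam1 value lay at the fold threshold and no longer passed without 67NR spleen 1, 4T07 spleen 1 or 4T07 spleen 2, where it was -0.90, -0.89 and -0.96. Between 4T1 and 67NR spleens, Tlx1 was lower with a log2 fold change of -1.23 (SE 0.22, edgeR adjusted p = 6.76e-04), 1 of 6 genes where 10.4% of all genes were called lower. Between 4T1 and 4T07 spleens, 0 of 6 were called (0 at an unadjusted p under 0.05, 0 by DESeq2), where 2.33% of all genes were called. The comparisons share control and 67NR libraries, so their values are not independent.

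**Figure D3:**
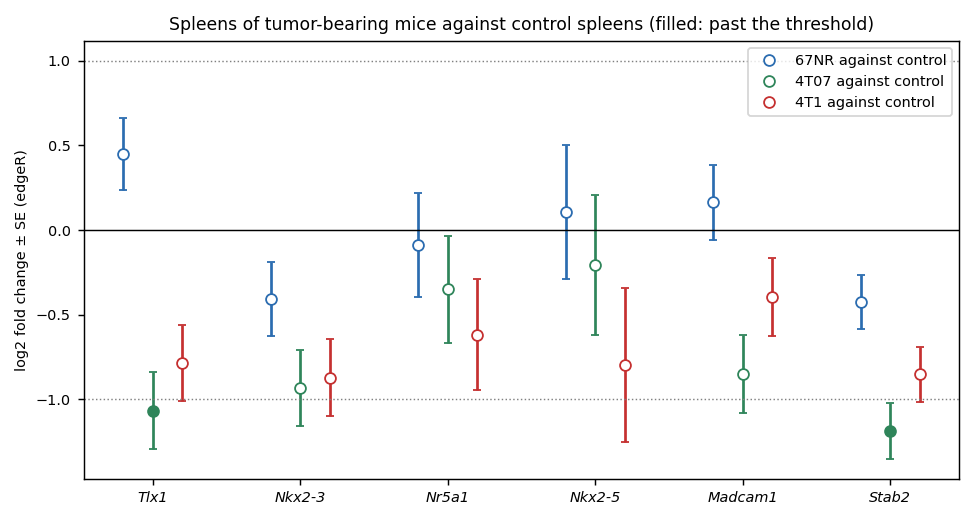
Log2 fold change against Control spleens (vertical axis, edgeR estimate ± SE) for each gene in the spleens of 67NR, 4T07 and 4T1 mice, 3 libraries per group. Filled points passed both thresholds (adjusted p under 0.10, over 2-fold), which were Tlx1 (-1.07) and Stab2 (-1.19) in 4T07, and dotted lines mark the fold threshold.

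Other genes of the spleen differed in the 4T07 and 4T1 spleens. The share of all genes that fell was 10.3% in 4T07 and 10% in 4T1 spleens, and 8.26% and 9.84% rose. Of 9 tested spleen development and non-canonical NF-kB factors, 2 fell in both, Wt1 and Tcf21, which are transcription factors of splenic mesenchyme, and none rose. Of 8 macrophage markers, 5 fell in 4T07 and 4 in 4T1 spleens, with Marco at a log2 fold change of -1.98 (SE 0.23, edgeR adjusted p = 1.48e-05) in 4T07. Of 8 B cell markers, 5 fell in 4T07 and 6 in 4T1. Cr2, also carried by follicular dendritic cells, had a log2 fold change of -2.04 (SE 0.23, edgeR adjusted p = 9.63e-06) in 4T07. Of 8 tested white pulp stroma genes, 2 fell in 4T07, Mfge8 and Enpp2, and 1 rose, Pdpn, while Enpp2 alone fell in 4T1.

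The sinusoidal list was mixed, as Stab1, the paralog of Stab2, rose in 4T07 spleens with Lyve1 and Fcgr2b while Clec4g and Itgb7 fell. In 4T1 spleens 1 of its 8 genes, Clec4g, fell, a share near that of all genes. Of 10 erythroid markers, 6 rose in 4T07 and 9 in 4T1 spleens. Their summed level was 75741 to 96707 CPM in 4T07 and 83249 to 88557 CPM in 4T1, against 47673 to 61674 CPM in Control spleens. Of 7 tested lung epithelium markers, 5 rose in 4T07 spleens, with Scgb1a1, the club cell secretoglobin, at 39.6 ± 17.1 CPM against 0.84 ± 0.33 CPM in Control spleens. Scgb1a1 also rose in 4T1 spleens, as did 6 of 10 exocrine pancreas genes, whose sum was 213, 332 and 3597 CPM in these spleens. Star and Cdh17, markers of steroid-producing cells and intestine, fell in both 4T07 and 4T1 spleens, and so did Upk3b and Lrrn4 of the mesothelium list. Adipoq, Myl4, Tbx5 and Alb fell in 4T1 spleens. In 67NR spleens, where 1.29% of all genes rose and 0.97% fell, Klf1, Ermap and Rhag of the erythroid list and Scgb1a1 rose, and Clec4g fell. The part of these other cells in the levels of the stroma genes was not tested.

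In the scaffolds, the highest levels of Tlx1, Nkx2-3, Nr5a1, Madcam1 and Stab2 were in a single library. In 4T07 scaffold 1, Tlx1 was at 4.65 CPM, Nkx2-3 at 2.32 CPM, Nr5a1 at 0.98 CPM, Madcam1 at 2.94 CPM and Stab2 at 19.1 CPM. The other 4T07 scaffolds had Tlx1 at 0.39 and 0.47 CPM and Stab2 at 6.09 and 5.44 CPM, both below the Control scaffolds (0.63 to 0.79 CPM and 6.14 to 7.13 CPM). Erythroid transcripts summed to 16233 CPM in scaffold 1 and to 4745 and 2122 CPM in the others, and pancreas transcripts to 102, 20.6 and 12.4 CPM, against 1387 to 1570 CPM and 1.89 to 4.20 CPM in Control scaffolds. edgeR called 0 of Tlx1, Nkx2-3, Madcam1 and Stab2 in 4T07 against Control scaffolds (1 at an unadjusted p under 0.05, 0 by DESeq2), where 7.44% of all genes were called. Without Control scaffold 3 or 4T07 scaffold 3 it called 1, Nkx2-3. Nr5a1 passed the filter through the 4T07 scaffolds alone and is not counted. Of the other 4 genes, edgeR called 0 in 67NR (0 at an unadjusted p under 0.05, 0 by DESeq2; 0% of all genes) and 0 in 4T1 scaffolds (0 at an unadjusted p under 0.05, 0 by DESeq2), where 0.0226% of all genes were called. In the 4T1 scaffolds, Stab2 ranged from 4.31 to 12.4 CPM.

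In the primary tumors, Tlx1 was at 4.42 CPM, or 22 counts, in 4T07 tumor 1 and between 0 and 0.81 CPM in the other 8 tumors. Stab2 was at 8.43, 1.81 and 3.95 CPM in the 4T07 tumors. Tumor 1 also held 14574 CPM of erythroid transcripts, against 3835 and 3077 CPM in its group mates, and 56.2 CPM of pancreas transcripts, against 15.4 and 9.03 CPM. Madcam1 was at 1.27 to 1.81 CPM in the 4T07 tumors, above 0 to 0.56 CPM in 67NR and 0.22 to 1.10 CPM in 4T1 tumors. Tlx1 and Nkx2-3 passed the filter on low counts through the 4T07 tumors alone, with 4 counts each over the other 6 tumors. They are left out of the counts of called genes below. None of the genes tested was called (adjusted p under 0.05, over 2-fold). In 4T07 against 67NR tumors edgeR called 0 of Madcam1 and Stab2 (2 at an unadjusted p under 0.05, 0 by DESeq2), where 28.9% of all genes were called. In 4T1 against 67NR it called 0 of Madcam1 and Stab2 (0 at an unadjusted p under 0.05, 0 by DESeq2), where 20.7% of all genes were called. In 4T1 against 4T07 it also called 0 of Madcam1 and Stab2 (0 at an unadjusted p under 0.05, 0 by DESeq2), where 8.61% of all genes were called. Nr5a1 and Nkx2-5 had at most 2 counts in any tumor and were not tested. Leaving out 1 library brought 1 call in each of 3 cases. These were Madcam1 for 4T07 against 67NR without 67NR tumor 3 and Stab2 for the same comparison without 4T07 tumor 2. The third was Tlx1 for 4T1 against 4T07 without 4T07 tumor 3, a gene that passed the filter through the 4T07 tumors alone.

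For each member, the 3 genes with the most similar pattern over the 15 group means were taken (Pearson's r on log2(CPM + 0.5)). Only genes reaching a group mean of 5 CPM were ranked. The 15 means include the 4T07 lungs, whose levels chose the members, so the likeness is a description. Lrrn1 was nearest to Tlx1 (r = 0.989), Prss29 to Nkx2-3 (r = 0.994) and to Nr5a1 (r = 0.982), and Pou2f2, an octamer factor of B cells, to Nkx2-5 (r = 0.973). Kcnj16, a potassium channel, was nearest to Madcam1 (r = 0.983). Stab2 was nearest to the macrophage genes Marco (r = 0.984) and Spic (r = 0.984). Prss29, Kcnj16 and Hs3st2 were among the 3 nearest genes of several members, and Kcnj16 was at 47.5 CPM in Control spleens, 10.8 CPM in 4T07 lungs and 0.68 CPM in the other lungs.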

How the data were processed

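RNA from 45 samples had been sequenced as QuantSeq libraries, in which reads start near the 3′ end of a transcript. The authors deposited whole-number counts per gene symbol without normalization, made per the labels with Trim Galore 0.5.0, STAR 2.6.0 and featureCounts. The build, the annotation, the strand setting and the handling of molecular identifiers are not given in the sources used here. Symbols that occupied several lines were added up (120 lines), giving 55367 symbols. Library totals were 3491888 to 8175380 counts, so levels of a few CPM rest on few reads.

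Each tissue was fitted with all its groups in edgeR 4.0.16 (R 4.3.3) with TMM scaling and the quasi-likelihood F test, for genes whose counts over the tissue summed to more than 10, and p-values were adjusted over all of them by Benjamini-Hochberg. Thresholds follow the study, an adjusted p under 0.10 (tumors 0.05) with over 2-fold difference, and the comparison of Control spleens with Control scaffolds used 0.05. The fit for that comparison held all Control libraries, lungs included. An exact permutation test of 3 against 3 libraries cannot give a p under 0.1, so none is printed. In simulated counts with 200 genes changed 4-fold in the comparison of 67NR with control spleens, 99.5% of them were recovered among 21128 genes. The changed genes were drawn from those with higher counts, and all genes had the same fixed spread. The simulation therefore does not cover changes near 2-fold or genes with few counts, such as most of the set outside the spleens.

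The 6 genes and the marker lists were chosen with earlier results of these data known. Beside the 6, named genes were the 3 of each list with the highest level in Control spleens (for lists of other tissues, over the lungs), the 3 genes most like each member, and the 10 highest genes of the 4T07 lungs among those with at most 3 counts in each other lung. Other genes were named after their values were seen. The comparisons of 4T07 and 4T1 with 67NR spleens were added after seeing the data. Alternatives were DESeq2 1.42.0, its size factors in edgeR, other count filters, only the compared groups, the 100 most counted genes left out, each library left out, the 4T07 libraries left out (added after seeing the data) and other pseudocounts. No 2 libraries of a group were identical in their counts (45 pairs).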

Additional observations from a re-analysis of the deposited data

Results flagged for a closer look

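For 4 of the 6 genes the difference between 4T07 and Control mice ran in opposite directions in lungs and spleens, with every 4T07 lung above and every 4T07 spleen below the corresponding Control libraries. Over all 19700 genes with more than 10 counts in both tissues, 802 (4.07%) did so. The lung part of this pattern was fixed by how the 6 genes were chosen, so that share is no fair measure for them. For the spleen part alone, 26.2% of all genes tested had every 4T07 spleen below the Control spleens. The difference between the tissues was not tested, because the lung values chose the genes. The mean level in 4T07 minus Control was 12.7 CPM in lungs and -20.1 CPM in spleens for Tlx1, 10.5 and -23.8 CPM for Nkx2-3, 8.62 and -12.4 CPM for Madcam1, and 45.7 and -99.9 CPM for Stab2. Nr5a1 and Nkx2-5 were not in this group, since their 4T07 and Control spleens overlapped.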

How the results depend on the processing

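Of 183 recomputed counts of called genes, 163 stayed within 1.5 times the reported count. The reported count was 0 in most comparisons, and a 0 that stayed 0 is among the 163. No paired analysis was possible because the labels give the groups no shared replicate number and do not link tissues of a mouse. Leaving out each library in turn gave 1 to 4 called genes for 4T07 against Control spleens, 0 to 3 for 4T1 against Control spleens, 1 to 2 for 4T07 against 67NR spleens, and 0 to 1 for 4T07 against Control scaffolds, 4T07 against 67NR tumors and 4T1 against 4T07 tumors. Requiring 10 counts in every library gave 1 called gene for 4T1 against Control spleens (Nkx2-3) and 1 for Control spleens against scaffolds, where 1 was tested, and left no gene to test in the tumors. Without a count filter there was 1 for 4T07 against 67NR spleens (Tlx1), 1 for 4T07 against Control scaffolds (Nkx2-3), 2 for 4T07 against 67NR tumors (Tlx1 and Stab2) and 1 for 4T1 against 4T07 tumors (Tlx1). In the tumors, Tlx1 had 4 counts over all 67NR and 4T1 libraries, so its calls there stand on the 4T07 tumors alone. For 4T07 against 67NR spleens, leaving out the 100 most counted genes or fitting only the compared groups also gave 1. The cause of these shifts was not tested.

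Of 510 recomputed log2 fold changes of single genes in the spleens, 484 kept their direction and side of the threshold. Nkx2-3 in 4T1 against 4T07 spleens turned to -0.00035 without the 100 most counted genes. With each library left out in turn, signs changed within these ranges, none past the threshold: for 4T1 against 4T07 spleens, Nkx2-3 from -0.23 to 0.20 and Tlx1 from -0.022 to 0.50, for 67NR against Control spleens, Nr5a1 from -0.32 to 0.13, Nkx2-5 from -0.18 to 0.34 and Madcam1 from -0.012 to 0.27, and for 4T07 against Control spleens, Nkx2-5 from -0.48 to 0.066. Without the 4T07 libraries of a tissue, the 7 counts that could be recomputed were as reported. Other scalings moved the median of all genes by at most 0.061 on the log2 scale. A pseudocount of 0.1 kept 11 of the 18 genes named as most like a member. Depth limits Nr5a1 and Nkx2-5 outside spleens and 4T07 lungs to single counts.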

Other observations

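The 4T07 lungs also held genes that the other lungs hardly showed. With over 3 counts in at least 1 4T07 lung and at most 3 counts in each of the other 9 lungs, 556 genes were found, 126 of them in all 3 4T07 lungs, and Nr5a1 and Nkx2-5 were among the 556. With at most 1 count in each other lung there were 149. Of the 556 genes, 133 (23.9%) had over 3 counts in every Control spleen, and of the 126 genes 65 did. The share of all genes at that threshold was not computed. At a stricter one, 10958 of the 55367 symbols had at least 10 counts in every one of the 12 spleens. These counts are therefore not read as a result about the spleen. The 10 highest were Vpreb2, Pnliprp2, Sycn, Tac2, Phyhip, 6030468B19Rik, Gfap, H3c6, Hs3st2 and Spink1. Pnliprp2, Sycn and Spink1 are genes of pancreatic acinar cells.

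Vpreb2, a surrogate light chain gene of B cell precursors, was at 13.3, 9.70 and 4.77 CPM in the 4T07 lungs, at 7.27 CPM on average in the 4T07 spleens and at 0 in the Control spleens. Its near-identical copy makes the split of its counts uncertain. Hs3st2, a heparan sulfate sulfotransferase, was at 6.77, 8.05 and 5.86 CPM in the 4T07 lungs and at 17.9 CPM on average in the Control spleens. These values were used to pick the genes and are given without a test.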
